A study of Homo sapiens with 4 samples.

Results

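The genes described here are 52 genes of the cell cycle and of DNA replication, listed by name, out of the 23287 gene symbols in the RNA-seq tables. They comprise 10 cyclins, cyclin-dependent kinases (CDKs) and a phosphatase of the G1 phase, 3 pocket proteins, 8 E2F transcription factors, 6 CDK inhibitors, 10 genes of origin licensing and replication, 3 enzymes of nucleotide supply, 10 regulators of the G2/M phases and 2 markers of proliferating cells. All 52 symbols were found in both tables, and 50 of them reached 1 FPKM in at least 1 condition and were kept. FPKM counts fragments relative to transcript length and library size, so levels of different genes can be set side by side. CCND2 and CDKN1C, at 0.0121 and 0.210 FPKM in EtOH and at 0 and 0.462 FPKM in R5020, stayed below that level.

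The cells were T47D, an established human breast cancer line that expresses the progesterone receptor (PR). One culture was treated with 10 nM R5020, a synthetic progestin, for 3 h, and another with the vehicle ethanol (EtOH), both in hormone-stripped serum, and poly(A) RNA of each gave 1 library. PR-bound chromatin was sequenced from T47D cells after 1 h of 10 nM R5020, also as 1 library. Those cells had been kept in hormone-stripped serum for longer than the cells used for RNA. There was 1 library per condition, so no difference below has a replicate check, none was tested, and each compares these libraries only.

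The luminal markers PGR, ESR1, GATA3, KRT19 and EPCAM lay between 10.9 and 608 FPKM in both libraries, while the leukocyte, endothelial and basal markers PTPRC, PECAM1, KRT5 and KRT14 and the mesenchymal marker VIM were at 0.527 FPKM or less. COL1A1, another mesenchymal gene, was at 5.12 FPKM in EtOH and 3.31 FPKM in R5020. KRT8 and KRT18 were listed at 0 in EtOH, where their estimates carry a status of failure, and none of the 52 cell cycle genes had such a status. Of the known progestin targets, FKBP5 was at 15.9 FPKM in EtOH and at 86.6 FPKM in R5020. For 20 of the 52 genes the deposited FPKM of a transcript lay outside its own deposited interval in at least 1 library, for 19 of them in both. In EtOH the midpoint of the interval was from 0.532 times the FPKM, for TK1, to 1.93 times, for TOP2A, and in R5020 these were 0.521 and 1.90 times. The genes were BUB1, CCNB1, CCNB2, CCND1, CDC20, CDC6, CDKN1B, CDT1, E2F1, E2F7, MCM3, MCM5, MCM6, MCM7, PLK1, RB1, RBL2, TK1, TOP2A and TYMS, so their levels, and the sums that hold them, are stated as deposited and could differ by such factors. The deposited coverage, summed over transcripts, corresponded to 35151493 reads in EtOH and 36203604 reads in R5020. This sum is not a count of the reads sequenced, and the paper reports more unique reads for EtOH than for R5020.

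In G1, D-type cyclins with CDK4 or CDK6, and then E-type cyclins with CDK2, phosphorylate the pocket proteins RB1, RBL1 and RBL2. Phosphorylated pocket proteins release the E2F factors, which switch on genes for nucleotide supply and DNA replication, while CDK inhibitors of the INK4 and CIP/KIP families hold the kinases back. Origins are licensed by loading of the MCM2 to MCM7 helicase through CDC6 and CDT1, and A- and B-type cyclins, CDC25 phosphatases and the Polo and Aurora kinases then drive G2 and mitosis. In breast epithelium cyclin D1 is a well-known mediator of steroid hormone action on the cell cycle, and the PR binds DNA as a dimer at an inverted repeat of short half-sites.

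PR binding sites were called by the authors on the human genome build hg19, each with a score that is 10 times the −log10 of its p-value. The central bases of the highest-scoring site within 50 kb are shown, on the plus strand, for CCND1 and E2F1, which were at least 1.5-fold higher in R5020. The CCND1 site lies inside the gene, and the E2F1 site 45447 bp away from its gene. The site of CDKN1A, which encodes the CDK inhibitor p21, is added because it had the highest score inside any of the 52 loci, and it was picked after its values were seen. Capitals mark the inverted repeat, that is the half-sites GNACA and TGTNC with any 3 bases between them. It is present in the CDKN1A sequence only.
CCND1 site, chr11:69464943-69465093, intron of CCND1, score 67.93: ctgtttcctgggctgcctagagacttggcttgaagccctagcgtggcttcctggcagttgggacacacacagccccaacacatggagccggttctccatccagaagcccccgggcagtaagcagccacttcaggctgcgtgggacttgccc
E2F1 site, chr20:32320260-32320410, intron of the neighbouring gene ZNF341, score 802.41: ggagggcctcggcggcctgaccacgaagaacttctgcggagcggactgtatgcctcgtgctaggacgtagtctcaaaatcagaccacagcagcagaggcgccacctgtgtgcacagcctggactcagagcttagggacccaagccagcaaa
CDKN1A site, chr6:36647348-36647498, intron of CDKN1A, score 341.43: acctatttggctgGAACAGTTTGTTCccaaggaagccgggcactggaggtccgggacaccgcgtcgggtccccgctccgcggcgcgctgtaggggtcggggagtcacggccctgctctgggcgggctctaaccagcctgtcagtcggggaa

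The genes that differed most between R5020 and EtOH belonged to the G1 phase and its inhibitors. On the scale of log2((FPKM in R5020 + 1) / (FPKM in EtOH + 1)), which understates the change of low genes, 5 of the 50 kept cell cycle genes were at least 1.5-fold higher in R5020, beside 7.67% of all 11018 kept genes. These were CCND1, CCNE2, E2F1, E2F3 and CDK6, all of the G1 phase, which holds 20 of the 50 kept genes. One gene, the CDK inhibitor CDKN2B, was at least 1.5-fold lower, beside 4.14% of all kept genes. Both counts are small and lie near these shares. The median log2 difference was 0.10 over the 50 genes and 0.01 over all kept genes, and 31 of the 50 lay above 0, beside 50.9% of all kept genes. In bulk RNA of a culture, more RNA per cell and more cells in a phase cannot be told apart.

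**Figure D1:**
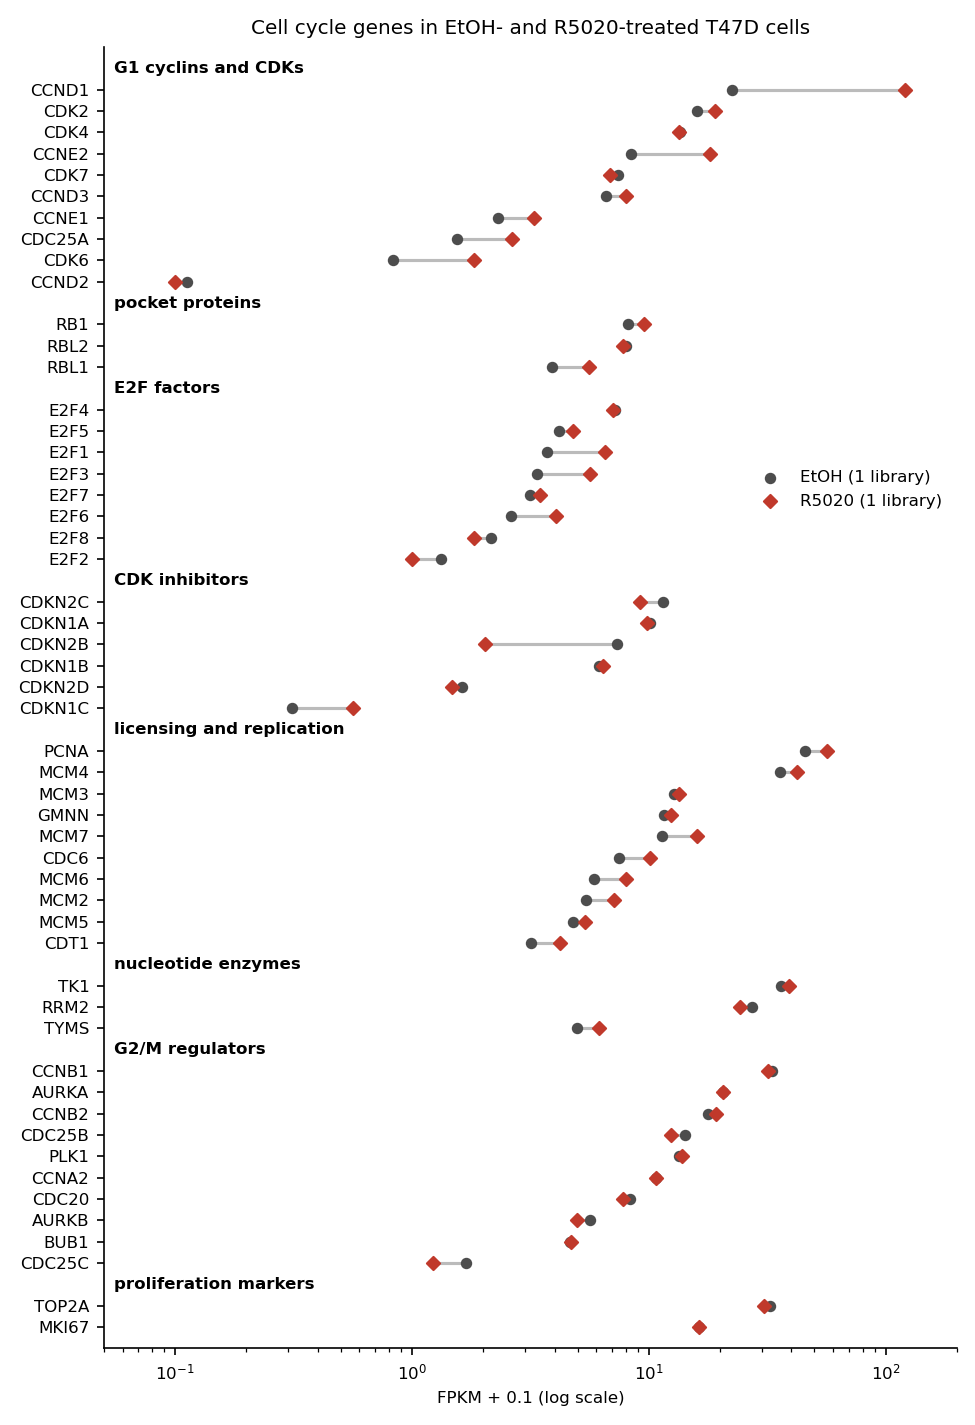
FPKM + 0.1 on a log axis for each of the 52 genes, grouped by role, with a grey circle for the EtOH library and a red diamond for the R5020 library. CCND1 moves from 22.2 to 120 FPKM and CDKN2B from 7.22 to 1.93 FPKM, while the circle and diamond of most G2/M regulators lie on top of each other.

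CCND1, which encodes cyclin D1, showed the widest gap of all 52 genes. Its level was 22.2 FPKM in EtOH and 120 FPKM in R5020, a 5.41-fold ratio and a log2 difference of 2.38. Its single transcript NM_053056 (chr11:69455873-69469242, hg19) had a coverage of 105 in EtOH and 549 in R5020. This placed its log2 difference at rank 53 of the 11018 kept genes. Among the 52 genes it was the most abundant in R5020, above PCNA. It made up 28.5% of the summed FPKM of the 10 G1 cyclins, CDKs and CDC25A in EtOH and 62.5% in R5020. The deposited interval of CCND1 was 15.4 to 17.1 in EtOH and 84.4 to 88.1 in R5020, below its FPKM in both, and the midpoints gave a log2 difference of 2.34.

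The other D cyclins did not share this gap. CCND3 was at 6.47 FPKM in EtOH and 7.95 FPKM in R5020, and CCND2 was near 0 in both, so cyclin D1 carried most of the D-cyclin sum of 28.7 FPKM in EtOH and 128.3 FPKM in R5020. Of the E cyclins, which act with CDK2 at the entry to S phase, CCNE2 was at 8.27 FPKM in EtOH and 18.1 FPKM in R5020, a log2 difference of 1.04. CCNE1 was at 2.21 and 3.18 FPKM, respectively, a log2 difference of 0.38 that is under the threshold. The E cyclins together stood at 10.5 FPKM in EtOH and 21.3 FPKM in R5020.

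Their kinase partners were closer between the libraries. CDK4 had 13.4 FPKM in EtOH and 13.3 FPKM in R5020, CDK2 15.9 and 18.9 FPKM, and CDK7, the CDK-activating kinase, 7.32 and 6.73 FPKM. CDK6 passed the threshold at a low level, with 0.730 FPKM in EtOH and 1.74 FPKM in R5020, a log2 difference of 0.66. All of the EtOH value was assigned to NM_001145306 and all of the R5020 value to NM_001259, which have different starts, and each was listed at 0 in the other library. CDC25A, the phosphatase that activates CDK2, lay just under the threshold at 1.45 FPKM in EtOH and 2.54 FPKM in R5020, a log2 difference of 0.53.

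Pocket proteins stayed under the threshold. RB1 was at 8.06 FPKM in EtOH and 9.45 FPKM in R5020 and RBL2 at 7.93 and 7.71 FPKM, while RBL1, the least abundant, was at 3.82 and 5.49 FPKM with a log2 difference of 0.43.

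Among the E2F factors, E2F1 and E2F3, both of the activating kind, were higher in R5020. E2F1 had 3.61 FPKM in EtOH and 6.45 FPKM in R5020, a log2 difference of 0.69, or 0.63 from the midpoints of its intervals. E2F3 had 3.26 and 5.56 FPKM, a log2 difference of 0.62, and its 2 transcripts NM_001243076 and NM_001949, which have different starts, kept shares of 74.8% and 25.2% in EtOH and of 74.9% and 25.1% in R5020. E2F2, the remaining activator, went the other way at 1.22 and 0.902 FPKM without reaching 1.5-fold, and the 3 activators summed to 8.09 FPKM in EtOH and 12.9 FPKM in R5020.

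The repressive E2F4 and E2F5 summed to 11.2 FPKM in EtOH and 11.6 FPKM in R5020. E2F4, the most abundant E2F in both libraries, was at 7.12 and 6.93 FPKM, and E2F5 at 4.07 and 4.70 FPKM. Of the E2F factors that repress without pocket proteins, E2F6 lay just under the threshold at 2.51 FPKM in EtOH and 3.97 FPKM in R5020, a log2 difference of 0.50. E2F7 was at 3.06 and 3.38 FPKM and E2F8 at 2.05 and 1.72 FPKM, neither near the threshold.

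CDK inhibitors differed by family. CDKN2B encodes p15, an INK4 inhibitor of CDK4 and CDK6, and was at 7.22 FPKM in EtOH and 1.93 FPKM in R5020, a log2 difference of −1.49 that ranks 81st from the bottom of the 11018 kept genes. Both of its transcripts were lower, NM_004936 at 6.01 and 1.93 FPKM and NM_078487 at 1.20 and 0 FPKM. The antisense RNA CDKN2B-AS1 spans the CDKN2B locus and was at 0.537 FPKM in EtOH and 0.246 FPKM in R5020. Whether reads were assigned by strand is not given in the sources used here, and whether the exons of these genes overlap was not examined. A part of reads of one gene in the value of the other was therefore not tested.

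The other INK4 genes, CDKN2C and CDKN2D, were at 11.3 and 1.53 FPKM in EtOH and at 9.10 and 1.38 FPKM in R5020, both lower without reaching 1.5-fold. The CIP/KIP inhibitors, which bind cyclin-CDK2 complexes, summed to 16.3 FPKM in EtOH and 16.4 FPKM in R5020. CDKN1A was at 10.0 FPKM in EtOH and 9.70 FPKM in R5020, and CDKN1B, which encodes p27, at 6.03 and 6.28 FPKM, so the levels of both were nearly equal in the libraries.

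**Figure D2:**
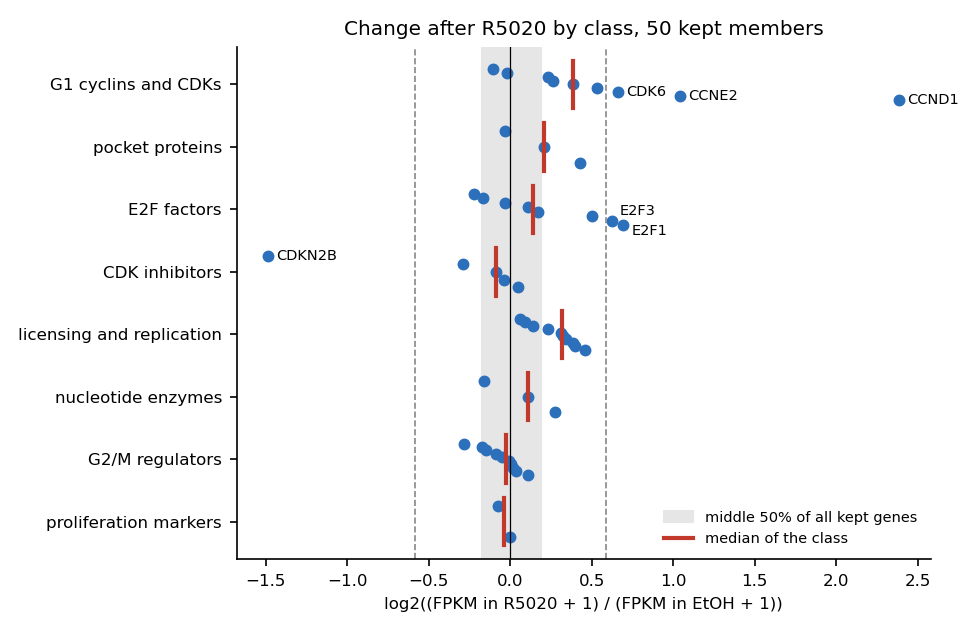
Log2 difference between R5020 and EtOH for the 50 kept genes by role, 1 point per gene, with a red bar at the median of each class, a grey band from −0.17 to 0.19 for the middle 50% of all 11018 kept genes, and dashed lines at 1.5-fold. The 10 licensing and replication genes all lie above 0 with a median of 0.32, and the 10 G2/M regulators lie around 0 with a median of −0.03.

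None of the licensing and replication genes reached 1.5-fold, but all 10 were above 0, with log2 differences from 0.06 to 0.46 and a median of 0.32. Their sum was 142.8 FPKM in EtOH and 174.4 FPKM in R5020. MCM7 stood nearest to the threshold at 11.3 FPKM in EtOH and 15.9 FPKM in R5020. The 6 subunits of the MCM helicase summed to 75.5 FPKM in EtOH and 91.5 FPKM in R5020, and MCM6, with 5.77 and 7.92 FPKM, came after MCM7 in the size of its difference. MCM4 was the most abundant subunit at 35.7 and 42.1 FPKM, and MCM5 was at 4.71 and 5.28 FPKM, MCM2 at 5.32 and 7.01 FPKM and MCM3 at 12.7 and 13.3 FPKM.

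The loaders of the helicase showed gaps of like size. CDC6 was at 7.39 FPKM in EtOH and 9.97 FPKM in R5020, and CDT1, the least abundant gene of the class, at 3.09 and 4.12 FPKM. GMNN encodes geminin, which blocks CDT1, and was at 11.5 and 12.3 FPKM. PCNA, the sliding clamp of the replication fork, was at 45.4 FPKM in EtOH, the highest FPKM of the 52 genes there, and at 56.6 FPKM in R5020. By the deposited intervals TOP2A, at 60.9 to 63.5 in EtOH, would stand above PCNA, at 45.2 to 49.3.

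The enzymes of nucleotide supply pointed in both directions. TK1 was at 35.9 FPKM in EtOH and 38.8 FPKM in R5020, TYMS at 4.86 and 6.07 FPKM and RRM2, a subunit of ribonucleotide reductase, at 27.1 and 24.1 FPKM. RRM2 carries a low-data status in both libraries. No gene of this class came near 1.5-fold.

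G2/M regulators were close between the libraries, with log2 values from −0.28 to 0.11 and a median of −0.03. Their sum was 128.9 FPKM in EtOH and 126.2 FPKM in R5020. CCNA2 was at 10.6 and 10.7 FPKM, CCNB1, the most abundant gene of the class, at 32.9 and 31.7 FPKM and CCNB2 at 17.7 and 19.1 FPKM. These cyclins together stood at 61.2 FPKM in EtOH and 61.5 FPKM in R5020. Among the kinases, PLK1 was at 13.3 and 13.6 FPKM, AURKA at 20.5 and 20.4 FPKM, AURKB at 5.52 and 4.87 FPKM and the checkpoint kinase BUB1 at 4.55 and 4.60 FPKM. CDC20, an activator of the anaphase-promoting complex, was at 8.24 and 7.70 FPKM. The largest difference of the class was that of the phosphatase CDC25C, at 1.59 and 1.13 FPKM, and its relative CDC25B was at 14.0 and 12.4 FPKM.

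The proliferation markers were level between the libraries. MKI67, whose product Ki-67 marks cycling cells, was at 16.2 FPKM in both, and TOP2A, which encodes a topoisomerase of dividing cells, was at 32.2 FPKM in EtOH and 30.6 FPKM in R5020.

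Summed by phase, the 21 G1 genes stood at 124.8 FPKM in EtOH and 249.0 FPKM in R5020, and without CCND1 at 102.6 and 128.6 FPKM. The 13 S-phase genes stood at 210.6 FPKM in EtOH and 243.4 FPKM in R5020, with 12 of the 13 above 0. The 12 G2/M genes, proliferation markers included, stood at 177.4 and 173.0 FPKM, and the 6 inhibitors at 36.3 and 28.9 FPKM. The G1 total was thus 1.99 times as high in R5020, or 1.25 times without CCND1, the S-phase total 1.16 times and the G2/M total 0.975 times.

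Below the level of the gene, the estimates of single transcripts differed more often than their sums, as they also did over all kept genes and transcripts. Of the 92 transcripts of the 52 genes, 68 reached 1 FPKM, and 16 of these differed at least 1.5-fold, 12 higher and 4 lower in R5020, beside 19.7% of all kept transcripts. Of the 16, 9 belonged to 7 genes whose sum was under the threshold, and 5 were listed at 0 in 1 library. With transcripts that share most of their sequence, how reads were divided between them in each library was an estimate, and its part in these differences was not tested.

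**Figure D3:**
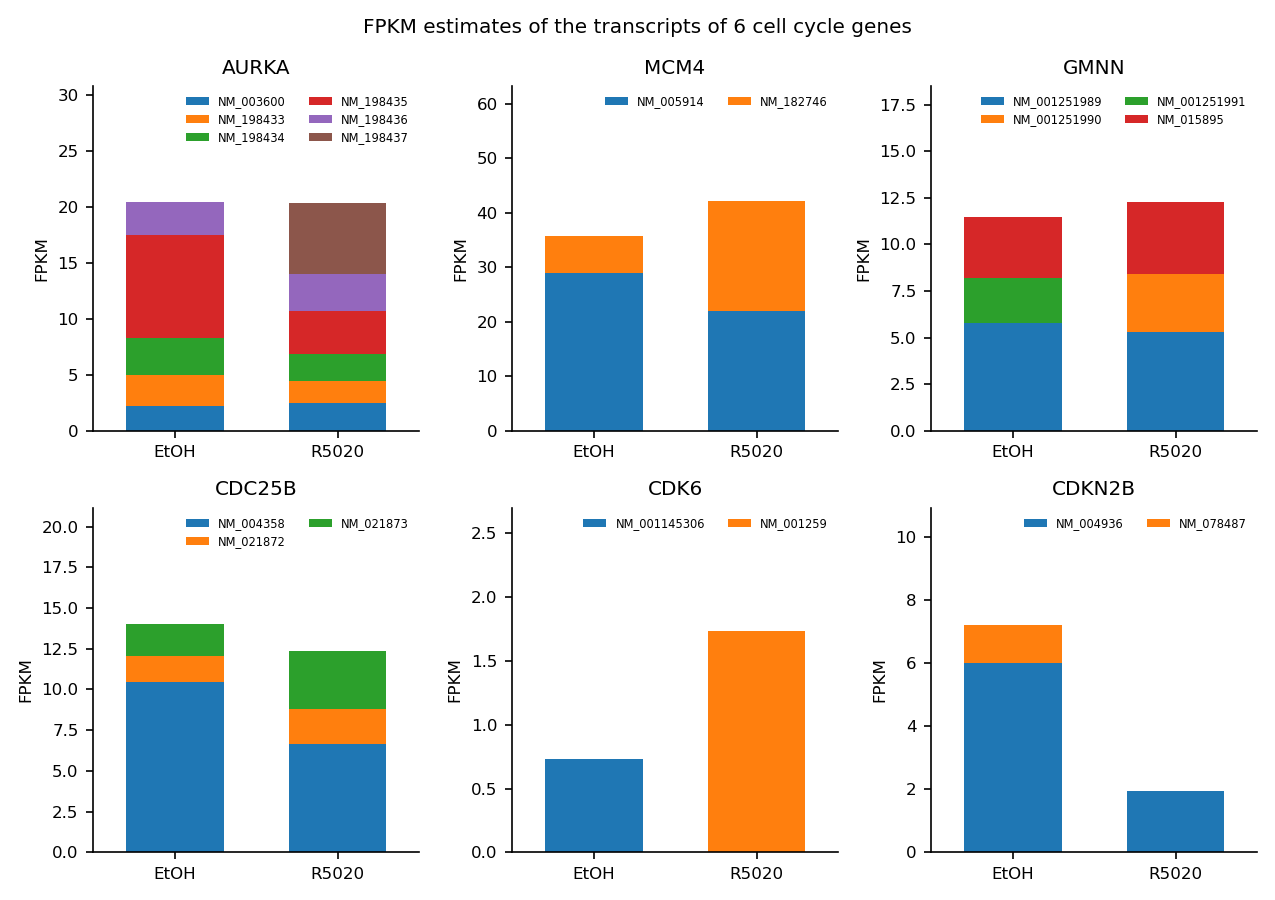
FPKM of each transcript, stacked to the gene sum, in EtOH and R5020 for 6 genes with transcripts that differed between the libraries. The sums of AURKA are level at 20.5 and 20.4 FPKM while NM_198437 is listed at 0 in EtOH and at 6.41 FPKM in R5020, and for CDK6 each library holds another transcript.

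AURKA gives the clearest case of differences that cancel. Its transcript NM_198435 was at 9.26 FPKM in EtOH and 3.80 FPKM in R5020, and NM_198437 was listed at 0 in EtOH and at 6.41 FPKM in R5020. Both have the same start, so they differ in the spliced sequence and not in the promoter.

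In MCM4 the transcript NM_005914 was at 29.0 FPKM in EtOH and 21.9 FPKM in R5020, whereas NM_182746 was at 6.64 and 20.1 FPKM, and the share of the latter went from 18.6% to 47.9% of the gene. These too have a common start. GMNN showed an exchange between transcripts of different starts, with NM_001251991 at 2.45 FPKM in EtOH and listed at 0 in R5020, and NM_001251990 listed at 0 in EtOH and at 3.10 FPKM in R5020. For CDC25B, NM_004358 was at 10.4 and 6.68 FPKM, just under the threshold, and NM_021873 at 1.98 and 3.56 FPKM, just over it.

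PR binding sites lay within 50 kb of 30 of the 52 genes, all of them kept, which is 60% of the 50 kept genes beside 52.7% of all kept genes. These genes had 73 distinct sites, of which 2 lay near both CDC6 and TOP2A, and 11 genes were overlapped by a site. Of the 73 sites, 33 lay in introns, 23 in exons and 17 between protein-coding genes. Their median score was 74.83, beside 74.5 over all sites.

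All 5 genes that were at least 1.5-fold higher in R5020 had a site within 50 kb, as did 61.4% of all such genes in these data, and CDKN2B had none, its nearest site being 306345 bp away. Of the 44 cell cycle genes under the threshold 25 had a site, or 56.8%, beside 51.5% of all kept genes under the threshold. By class, 8 of the 10 G1 cyclins and CDKs, 7 of the 8 E2F factors, 2 of the 3 pocket proteins, 2 of the 6 inhibitors, 4 of the 10 licensing and replication genes, 1 of the 3 nucleotide enzymes, 4 of the 10 G2/M regulators and both proliferation markers had one.

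**Figure D4:**
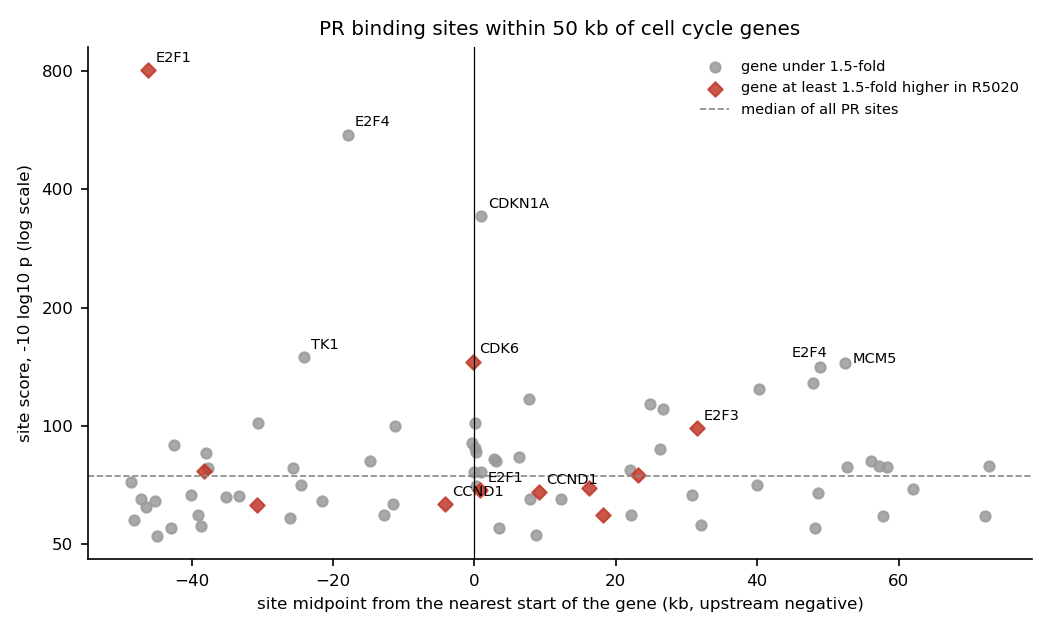
Score of each PR site, on a log axis, against the distance of its midpoint from the nearest start of the gene in kb, for all sites within 50 kb of the 30 genes, with red diamonds for genes at least 1.5-fold higher in R5020 and grey circles for genes under the threshold. The highest scores are those of sites near E2F1, E2F4 and CDKN1A, and the sites of CCND1 lie below the dashed line at the median of all sites.

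CCND1, the gene with the largest difference, had only moderate sites. One of score 63.24 lay 3864 bp upstream of the gene (chr11:69451551-69452008) and one of score 67.93 in an intron (chr11:69464828-69465207), both below the median score of all sites. CDK6, whose 2 transcripts have different starts, had a single site of score 145.66, rank 485 of all sites. The site ended 25 bp short of the outermost start. The site of E2F3, score 98.56, lay in an intron of the gene, and that of CCNE2, score 62.93, lay 30552 bp away in an exon of TP53INP1.

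E2F1 had 6 sites. The strongest, score 802.41 and rank 16 of all sites, lay 45447 bp upstream in an intron of ZNF341 (chr20:32319658-32321011), and one of score 68.56 lay in an intron of E2F1 within 1 kb of its start (chr20:32273124-32273558). The other 4 had scores from 59.5 to 77.02, so only the distant one stood out.

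High scores were also found beside genes with level expression. The CDKN1A site (chr6:36647117-36647728), in an intron and 936 bp from a start of the gene, had a score of 341.43 and rank 102, while CDKN1A itself was at 10.0 FPKM in EtOH and 9.70 FPKM in R5020. E2F4 had 4 sites, among them one of score 547.85 and rank 40 that lay 17395 bp away in an exon of NOL3 (chr16:67207670-67208672), and differed by a log2 of −0.03. TK1 had 7 sites with scores up to 149.57 and a log2 difference of 0.11, and CDT1 had 15 sites, 9 of them in introns of PIEZO1, with scores up to 116.99.

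A site lay within 1 kb of a transcript start in 10 of the 50 kept genes, or 20%, beside 10.5% of the 9372 kept genes whose strand is known. These were CDK6, CCNE1, RBL1, RBL2, E2F1, E2F2, E2F8, CDKN1A, CDKN2D and CDT1. Of them CDK6 and E2F1 were higher in R5020, and the other 8 lay under the threshold, from −0.23 for E2F2 to 0.43 for RBL1 on the log2 scale. Scores at these starts ran from 68.56 for E2F1 to 341.43 for CDKN1A.

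The inverted repeat shown in capitals for CDKN1A was found in 268 of the 11178 sites with sequence, 2.40%, on either strand. Of the 73 sites near cell cycle genes, 2 held it, the one in CDKN1A and one in an intron of PER1 close to 50 kb from AURKB. The longer half-site TGTTCT, on either strand, was found in 25.2% of all sites and in 10 of the 73, or 13.7%. The 73 sites had a median G+C content of 62.3%, beside 56.7% over all sites, and the part of base composition in these shares was not tested.

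Promoters of the same genes were searched for the 8-base words TTTCCCGC, TTTGGCGC, TTTCGCGC and TTTGCCGC on both strands, which are forms of the E2F recognition sequence. The promoters, from RefSeq on GRCh38.p14, run from 250 bases before to 50 bases after a RefSeq start. These starts were not matched to those of the transcripts measured here, so a promoter can lie away from the measured start. All shares below, also those by class, hold for these promoters only. With 1 promoter taken per gene symbol, 42 of the 52 genes had one. CCND1 and CCNE2 were among those without. At least 1 word was present in 13 of the 42, or 31.0%, beside 3.33% of 27305 promoters. The latter are all promoters available, whether or not the gene was kept here, so the 2 shares are not over like sets of genes. It was present in 7 of 8 licensing and replication genes, in 3 of 6 E2F factors and in 0 of 9 G2/M regulators. As a match of letters this says nothing of E2F binding, and a link to the differences in RNA was not tested. The promoters of MCM6, CDC6 and E2F1 are shown 5′ to 3′ on the strand of the gene, with the words in capitals, since they show how these words sit in a helicase subunit, its loader and the E2F1 gene itself. A word read on one strand can overlap another read on the opposite strand, as in MCM6.
MCM6 promoter, chr2:135876394-135876693, minus strand: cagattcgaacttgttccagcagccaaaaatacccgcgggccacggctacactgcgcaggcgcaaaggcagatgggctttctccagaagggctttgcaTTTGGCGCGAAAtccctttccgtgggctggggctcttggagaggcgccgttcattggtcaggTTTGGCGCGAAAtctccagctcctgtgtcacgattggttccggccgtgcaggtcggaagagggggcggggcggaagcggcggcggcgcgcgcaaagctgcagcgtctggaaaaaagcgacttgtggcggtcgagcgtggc
CDC6 promoter, chr17:40287629-40287928, plus strand: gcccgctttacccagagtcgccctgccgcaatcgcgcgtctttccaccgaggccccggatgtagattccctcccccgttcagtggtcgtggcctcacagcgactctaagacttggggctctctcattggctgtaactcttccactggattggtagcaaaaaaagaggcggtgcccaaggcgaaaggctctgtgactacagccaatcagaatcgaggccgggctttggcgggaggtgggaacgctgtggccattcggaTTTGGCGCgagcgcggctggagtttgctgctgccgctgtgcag
E2F1 promoter, chr20:33686336-33686635, minus strand: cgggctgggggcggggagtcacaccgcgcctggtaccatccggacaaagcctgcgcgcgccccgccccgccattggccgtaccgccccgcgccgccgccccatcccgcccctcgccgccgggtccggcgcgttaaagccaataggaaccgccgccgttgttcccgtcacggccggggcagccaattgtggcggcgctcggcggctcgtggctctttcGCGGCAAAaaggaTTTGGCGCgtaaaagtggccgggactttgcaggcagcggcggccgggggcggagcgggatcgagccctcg

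The shorter word TTTGAA, on either strand, is the core of the cell cycle homology region found in many genes of G2 and mitosis. It was present in 15.4% of all promoters and in 7 of the 42 of the cell cycle genes, or 16.7%. These were 3 of 9 G2/M regulators (CDC20, CCNB2 and PLK1), both proliferation markers, E2F3 and RBL2. These are the same promoters, not matched to the measured starts, and as a match of letters the word says nothing of binding.

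Of 141 further genes of the cell cycle, 132 were kept. Of these, 5, or 3.79%, were at least 1.5-fold higher and 2, or 1.52%, lower in R5020, beside 7.67% and 4.14% of all kept genes, and their median log2 difference was 0.05. GINS2, a subunit of the replicative helicase complex, was at 11.3 FPKM in EtOH and 34.0 FPKM in R5020. CDC14B, a phosphatase, was at 0.738 and 2.16 FPKM, RRM2B, a subunit of ribonucleotide reductase, at 8.74 and 15.2 FPKM, and UHRF1, which helps to maintain DNA methylation at replication, at 6.84 and 10.9 FPKM. SMC2, a condensin subunit, is counted as higher but was listed at 0 in EtOH where all of its estimates failed, so that it is no measured difference and 4 genes remain without it.

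The 2 lower genes were PLK2, a Polo-like kinase, at 31.9 FPKM in EtOH and 9.85 FPKM in R5020, and CCNG2, an atypical cyclin linked to arrest, at 25.7 and 14.2 FPKM. GINS2, UHRF1, PLK2 and CCNG2 were each overlapped by a PR site, RRM2B had one 413 bp away, CDC14B one 28460 bp away and SMC2 none within 50 kb. Of the 141 genes 63 had a site within 50 kb, and of the 132 kept genes 58, or 43.9%, beside 52.7% of all kept genes. Of the 43 kept genes of replication origins and forks 38 lay above 0, with a median log2 difference of 0.12, whereas 22 of the 40 kept genes of mitosis did so, with a median of 0.03.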

How the data were processed

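RNA-seq of T47D cells after R5020 or EtOH and PR ChIP-seq after R5020 were used, 1 library each, and the input DNA was not used here. Conditions were taken from the sample labels. The authors trimmed the paired reads of 50 bases with Trimmomatic, aligned them uniquely to hg19 with TopHat and deposited for each RefSeq transcript the FPKM estimated by Cufflinks, with an interval and a status. The coverage signal the authors deposited was used for the reads given above, computed as coverage times length over read length, and printed for CCND1. It is an estimate that Cufflinks divides between transcripts and not a count, so no counting interval is given. The ChIP-seq reads were aligned with Bowtie 1.1.2 per the labels, and the authors called sites with MACS against input and deposited a score of 50 or more for each of 11181 sites.

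The FPKM of transcripts was summed by gene symbol, a pseudocount of 1 was added, genes that reached an FPKM of 1 in either condition were kept, and 1.5-fold was the threshold. Libraries per condition numbered 1, so no test was made, no p-value was computed and no replicate could be left out. A gene was tied to a PR site that came within 50 kb of any of its transcripts, measured from the closer edge. Sites were placed by their midpoint in the protein-coding genes of GENCODE on GRCh37, the assembly of hg19, which also gave their sequence. Promoters are those of RefSeq on GRCh38.p14, and no coordinate was converted between builds. The sequences of some sites are not reported here.

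The 52 genes, their classes, the list of 141 further genes and the markers were chosen with earlier results of these data known. Values are given for each of the 52 genes past the threshold, each with a PR site, and the highest and lowest of each class, the others being added as values. The further genes are named where they passed the threshold. The procedure was run on simulated data with planted changes well above the threshold, in genes well above the FPKM filter. That run does not show how it performs for low genes or for differences near 1.5-fold. The alternatives tried were other pseudocounts, filters, a threshold of 2-fold, a rescaling, the highest transcript, the midpoint of the FPKM interval and other distances and scores of sites. Tables and plots were made with pandas 2.3.3, matplotlib 3.10.9 and numpy 2.4.6 in Python 3.11.15.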

Additional observations from a re-analysis of the deposited data

How the results depend on the processing

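No paired analysis was possible because there was 1 library per condition, and for the same reason no replicate could be left out. CCND1, CCNE2, E2F1 and E2F3 were at least 1.5-fold higher and CDKN2B lower under each alternative at that threshold. CDK6 joined them except with a filter of 2 FPKM, which it did not reach. At a threshold of 2-fold, 2 cell cycle genes remained higher (CCND1 and CCNE2) and CDKN2B lower, and 10 transcripts differed. Of the further genes 2 were then higher, GINS2 and SMC2, and 1 was lower, PLK2. The estimates of SMC2 failed in EtOH, so it is no measured difference. With a pseudocount of 0.1 or with none, the latter added after seeing the data, CDC25A and E2F6 were also past 1.5-fold. With 0.1 the further genes higher in R5020 numbered 8, SMC2 included. With the transcript of highest mean FPKM standing for the gene, CDC25A and E2F6 were again past 1.5-fold, which made 7 genes higher, and 2 were lower, AURKA besides CDKN2B. The median log2 difference of the 50 genes, 0.10, became 0.11 with a pseudocount of 0.1, with none and with a filter of 2 FPKM, 0.088 with FPKM rescaled to a median ratio of 1, 0.080 with the interval midpoint, also added after seeing the data, and 0.054 with the highest transcript. Within 10 kb, 16 of the 52 genes and 39 of the 141 further genes had a PR site. Of those that were kept, these were 32% and 26.5%, beside 33.0% of all kept genes. With sites of a score of at least 100 only, 12 and 17 had one, and of those kept 24% and 12.1%, beside 18.1%. Without a second library per condition, no difference here can be set against the spread between cultures.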

Other observations

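PR sites were unevenly spread over the genome, from 0.560 per Mb on the sparsest chromosome to 11.6 per Mb on the densest. Of the 50 kept cell cycle genes, 30 lay on the 12 chromosomes with the most sites per Mb, and 23 of these, or 76.7%, had a site within 50 kb, beside 61.9% of all kept genes there. The other 20 lay on the 11 chromosomes with fewer sites, and 7 of these, or 35%, had one, beside 40.1% of all kept genes there.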
